A study of Homo sapiens with 10 samples.

Results

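The 45 genes described here encode nucleolar proteins and ribosome assembly factors. They were taken by name from a fixed list of RNA polymerase I (Pol I), small nucleolar ribonucleoprotein (snoRNP) and ribosome assembly genes, and all 45 were found among the 59204 human genes counted. By role, 5 act in Pol I transcription, 6 are nucleolar hub proteins or box C/D snoRNP proteins, 4 form the box H/ACA snoRNP, 14 act in assembly of the small (40S) subunit and 16 in assembly of the large (60S) subunit. The cells were K562, an established human chronic myeloid leukaemia line. They were fed 30 µM 4-thiouridine, a uridine analogue that enters new RNA, during a pulse of 12 h with the medium renewed every 3 h. After washing they went into a chase with 3 mM uridine together with 1 µM AZ-5576, 1 µM JQ1 or the solvent DMSO. RNA was read at 2, 4 and 8 h of AZ-5576, of JQ1 and of DMSO, and at 0 h, a library that all arms share. AZ-5576 inhibits CDK9, the kinase that releases paused RNA polymerase II, and JQ1 displaces the BET bromodomain proteins from chromatin. All groups thus carry the same pulse, and an arm differs from DMSO only by its inhibitor. Each condition is 1 library of 1 cell line (n = 1), and differences between conditions have no replicates behind them.

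Ribosomes are made in the nucleolus. Pol I copies the ribosomal DNA into a long precursor, box C/D snoRNPs methylate and box H/ACA snoRNPs pseudouridylate it, and a large set of assembly factors folds and cuts it into both subunits. Most of these factors act on the precursor for a short time, are not part of the finished ribosome, and are made from mRNAs of RNA polymerase II. As a group they are well known targets of the transcription factor MYC, which binds with MAX to the sequence CACGTG, the canonical E-box. They are highly active in leukaemia lines, whose growth needs many ribosomes.

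The E-box at the start sites of these genes is shown first, because it is a feature the list was not chosen by. RefSeq promoters (GRCh38.p14, 250 bases before to 50 bases after the start, 300 bases) were in the table used here for 39 of the 45 genes. CACGTG reads the same on both strands. It occurred in 17 of these 39 promoters (43.6%), against 7.43% of 27305 promoters in the table and 10.9% of the 8405 promoters whose genes were tested. Of 18 sites in the 17 promoters, 11 began downstream of the start (61.1%), against 249 of 2255 sites in all promoters. The related forms CACGCG or CGCGTG occurred in 12 of 39 (30.8%), against 11.4% of all promoters and 19.6% of tested genes, and 4 promoters held both kinds. These are letter matches, not measured binding. The windows of 30 bases below show the sites whose first base lies from 16 bases before to 29 bases after the start. CACGTG is in capitals, each window is given 5′ to 3′ on the strand of the gene, and positions count from the first transcribed base as 1.
UTP4, chr16:69132621-69132650, plus strand, site at −16: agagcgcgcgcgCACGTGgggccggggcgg
NOP10, chr15:34343130-34343159, minus strand, site at −11: gaaattgacgaaCACGTGacgcggtcgggc
UTP20, chr12:101280083-101280112, plus strand, site at −10: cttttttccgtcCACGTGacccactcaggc
RRP9, chr3:51941892-51941921, minus strand, site at −5: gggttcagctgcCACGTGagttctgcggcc
WDR43, chr2:28894658-28894687, plus strand, site at 4: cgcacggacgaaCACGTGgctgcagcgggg
GNL2, chr1:37595917-37595946, minus strand, site at 4: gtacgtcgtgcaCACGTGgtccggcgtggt
FBL, chr19:39846356-39846385, minus strand, site at 7: tgcgctcttttcCACGTGcgaaagccccgg
PES1, chr22:30591880-30591909, minus strand, site at 14: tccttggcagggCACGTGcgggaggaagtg
NOL6, chr9:33473894-33473923, minus strand, site at 14: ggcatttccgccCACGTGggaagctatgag
MRTO4, chr1:19251807-19251836, plus strand, site at 15: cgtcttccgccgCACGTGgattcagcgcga
NOP14, chr4:2963374-2963403, minus strand, site at 16: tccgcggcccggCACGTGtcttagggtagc
BYSL, chr6:41921515-41921544, plus strand, site at 29: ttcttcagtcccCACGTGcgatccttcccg
LTV1, chr6:143843354-143843383, plus strand, site at 29: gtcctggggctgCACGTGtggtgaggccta
The bases around the hexamer differ from gene to gene, so the windows share little beyond it. NCL, NPM1 and NOP56 had no CACGTG in their windows.

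The libraries held 10293371 to 16008906 human reads each, of which 2031796 to 3868420 were labelled, and 1208073 to 2366155 reads of fly. The fly reads come from S2 cell RNA added at 5% to the purified RNA, so a level, given below as reads per 100000 fly reads, is relative to the mass of RNA and not to the number of cells. In such bulk RNA, fewer cells with a transcript and less of it per cell cannot be told apart. For each fly read there were 8.18 human reads at 0 h, 9.01, 7.01 and 5.38 at 2, 4 and 8 h in AZ-5576, 7.91, 7.77 and 7.94 in JQ1, and 9.64, 8.87 and 9.08 in DMSO. The 0 h and AZ-5576 2 h libraries stood apart in their fly genes, with a median absolute log2 deviation of 0.222 and 0.267, against 0.103 to 0.184 in the other libraries. All 9 erythroid markers of K562 had at least 480 reads at 0 h, whereas of 10 markers of other blood lineages 3 were at 0 and the highest had 363 reads. The markers of other lineages summed to 554 to 767 reads in AZ-5576 libraries, 455 to 691 in JQ1 libraries and 557 to 999 in DMSO libraries, and their part in the results was not tested. Without the 0 h library 42 of the 45 genes were lower under AZ-5576 and 34 under JQ1, and without AZ-5576 2 h 43 and 37, next to 42 and 33 with all libraries. Of all 11797 genes tested, 8705 and 1966 were lower without 0 h and 8921 and 2446 without AZ-5576 2 h. With all libraries these counts were 8643 and 1915.

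The 45 genes together held 1.15% of all human reads at 0 h. They held 1.09%, 0.965% and 0.798% at 2, 4 and 8 h in AZ-5576, 1.09%, 1.08% and 0.961% in JQ1, and 1.19%, 1.19% and 1.32% in DMSO. Since a read marks the 3′ end of a transcript, levels were not divided by length. NPM1 was the most abundant, at 3412 reads per 100000 fly reads at 0 h, followed by FBL at 1405, NCL at 523 and GNL2 at 428. UTP20 at 4.73 and PUM3 at 8.65 were the lowest. In GRCh38 with the GENCODE annotation, NPM1 (ENSG00000181163) spans chromosome 5, 171387116 to 171411137, on the plus strand, and FBL (ENSG00000105202) spans chromosome 19, 39834458 to 39846414, on the minus strand. PUM3 spans chromosome 9, 2720469 to 2844241, on the minus strand, and POLR1B chromosome 2, 112541915 to 112577150, on the plus strand. BYSL lies on chromosome 6, 41921188 to 41933046, and LTV1 on the same chromosome, 143843344 to 143863812, both on the plus strand. In that annotation another gene lay over the 3′ end of 6 of the 45 on the same strand and of 15 on the opposite strand, and the sources used here do not say whether counting used strand.

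In DMSO alone, total RNA of many of these genes rose over the chase. The slope of log2 total RNA per hour was above 0 and past the threshold (edgeR quasi-likelihood test, Benjamini-Hochberg adjusted p under 0.05 over all genes tested) for 23 of 45 members, against 24.5% of all 11797 genes. It was below 0 for 2 members, NHP2 and BOP1, against 3.78% of all genes. The median slope was 0.08 log2 per hour for the members and 0.05 for all genes. Rises were called for 11 of 14 factors of 40S assembly and 7 of 16 of 60S assembly, 3 of 4 H/ACA proteins, 1 of 5 Pol I genes (RRN3) and 1 of 6 hub or box C/D genes (NOP58). Without the DMSO 8 h library the rises called were 3 (LTV1, PUM3 and RRN3), and 458 over all genes. With TMM, a scaling by the bulk of the genes in each library itself, there were 19 rises and 9 falls, and 2012 rises and 1823 falls over all genes. Ratios to DMSO below therefore also hold this rise.

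**Figure D1:**
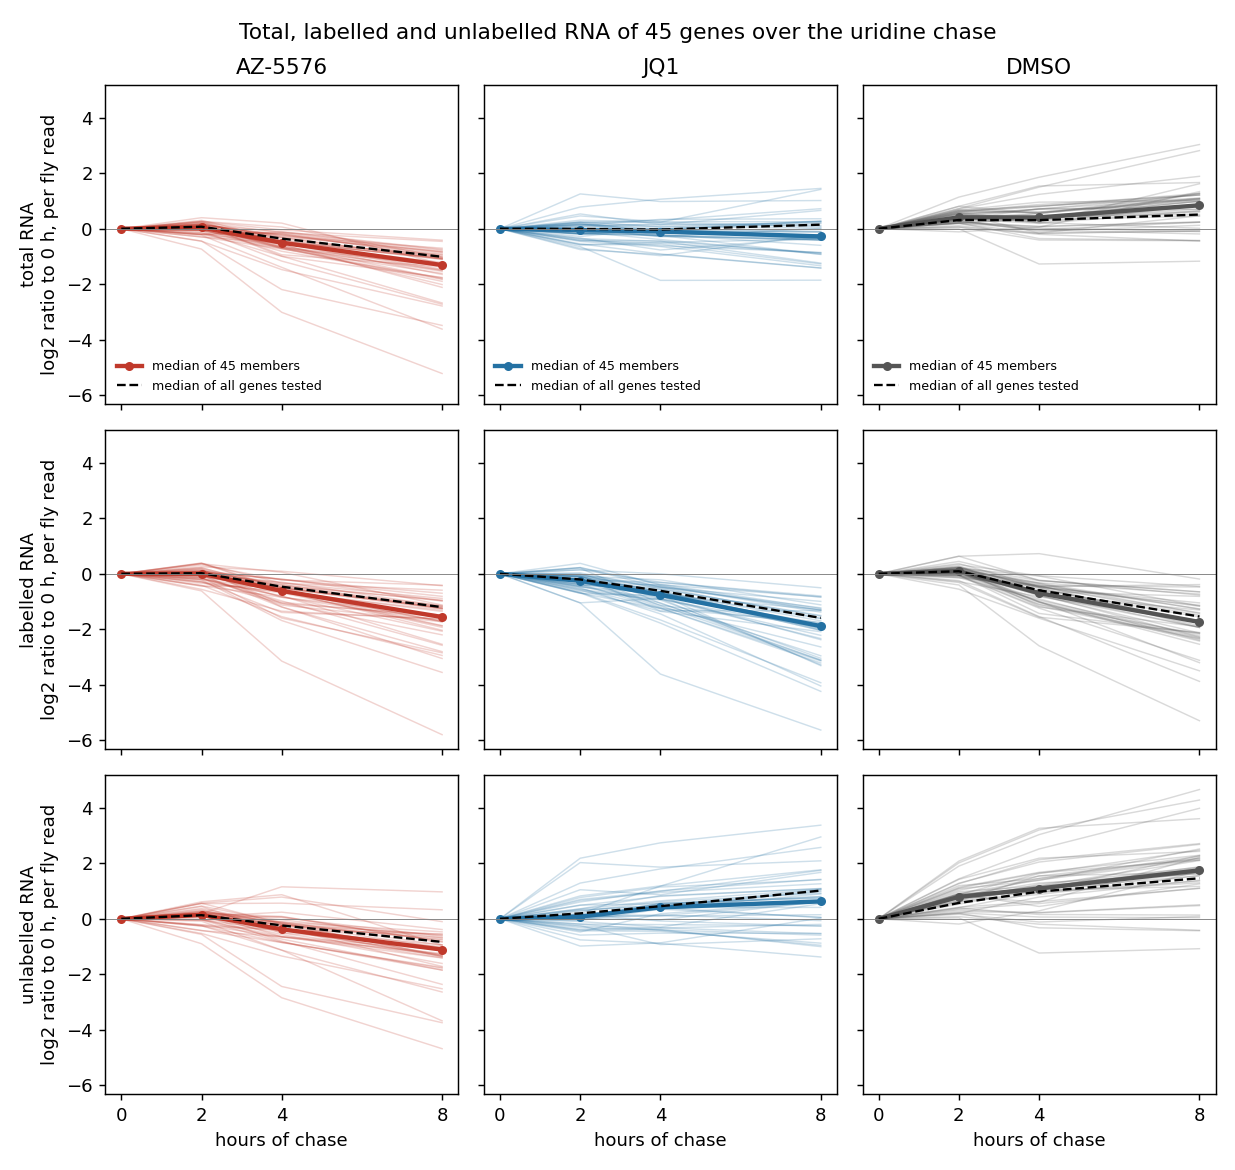
Log2 ratio to the 0 h library, per fly read, of total RNA (top), labelled RNA (middle) and unlabelled RNA (bottom) against hours of chase in AZ-5576, JQ1 and DMSO. Thin lines are the 45 genes, the thick line is their median and the dashed line the median of all genes tested. The median of total RNA was at −1.31 at 8 h in AZ-5576, −0.28 in JQ1 and 0.85 in DMSO.

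Under AZ-5576, total RNA of 42 of the 45 genes fell relative to DMSO and none rose, where 73.3% of all genes tested fell and 0.559% rose. The median difference of slope from DMSO was −0.25 log2 per hour over the members and −0.19 over all genes. Within AZ-5576 itself the slope was below 0 for 45 of 45 members and above 0 for none, against 69.2% and 0.356% of all genes. The median log2 ratio to 0 h was 0.04, −0.51 and −1.31 at 2, 4 and 8 h for the members, and 0.07, −0.36 and −1.01 for all genes. As a ratio to DMSO the median took values of −0.39, −0.86 and −2.14, and at 8 h all 45 genes were below their DMSO level, as were 94.0% of all genes. FBL, BOP1 and NHP2 missed the threshold. Under TMM the count was 27 lower and 6 higher (NPM1, NOP56, FBL, NHP2, BOP1 and EBNA1BP2), against 3253 lower and 2434 higher over all genes, whose median moved to −0.02. Under every scaling tried, 35 of the 45 genes lay below the median of all genes. A change of scale shifts all genes almost alike, so it could hardly move this count.

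Under JQ1, total RNA of 33 of the 45 genes fell relative to DMSO and none rose, where 16.2% of all genes fell and 1.79% rose. The median difference of slope was −0.13 log2 per hour over the members and −0.05 over all genes. Of the 45 members, 40 lay below the median of all genes, a count that a change of scale could hardly move. The median log2 change of the members from 0 h stood at −0.05, −0.10 and −0.28 at 2, 4 and 8 h in JQ1, and 0.41, 0.41 and 0.85 in DMSO. For all genes it was −0.01, −0.03 and 0.15 in JQ1, and 0.32, 0.31 and 0.51 in DMSO. Within JQ1 alone 15 members fell and 2 (RRN3 and PUM3) rose, against 17.3% and 15% of all genes. At 8 h all 45 genes were below DMSO, against 72.3% of all genes, and the median level was 50.0% of DMSO for members and 80.6% for all genes. At 2 and 4 h the median level was 72.7% and 71.9% of DMSO for members, and 79.8% and 82.1% for all genes. For members it was thus nearly level from 2 to 4 h and lower at 8 h. The count rested on the 8 h libraries: it was 5 without DMSO 8 h (BYSL, LTV1, NOP16, PUM3 and WDR43), when 170 of all genes tested were lower, and 20 without JQ1 8 h, when 1180 of all genes were lower. With TMM it was 23 lower and 0 higher, against 911 lower and 648 higher of all genes. The calls lost with TMM were GNL3, NOP10, POLR1A, POLR1C, PPAN, RRP12, UBTF, UTP14A, UTP20 and WDR12. Time levels, the other design, had 1 level per time point common to the arms and 1 constant shift per inhibitor over 2, 4 and 8 h. A constant shift cannot hold a difference that grows with time. Under JQ1 the median difference of all genes from DMSO did not grow from 2 to 8 h. With time levels edgeR called 0 members and 0 of all 11797 genes in either direction under JQ1. By the same test 17 members had an unadjusted p under 0.05. Under AZ-5576 edgeR called 3 (DDX21, LTV1 and RRN3), where 42 had an unadjusted p under 0.05. Of all genes, that design called 2.38% lower and 0.0848% higher under AZ-5576.

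**Figure D2:**
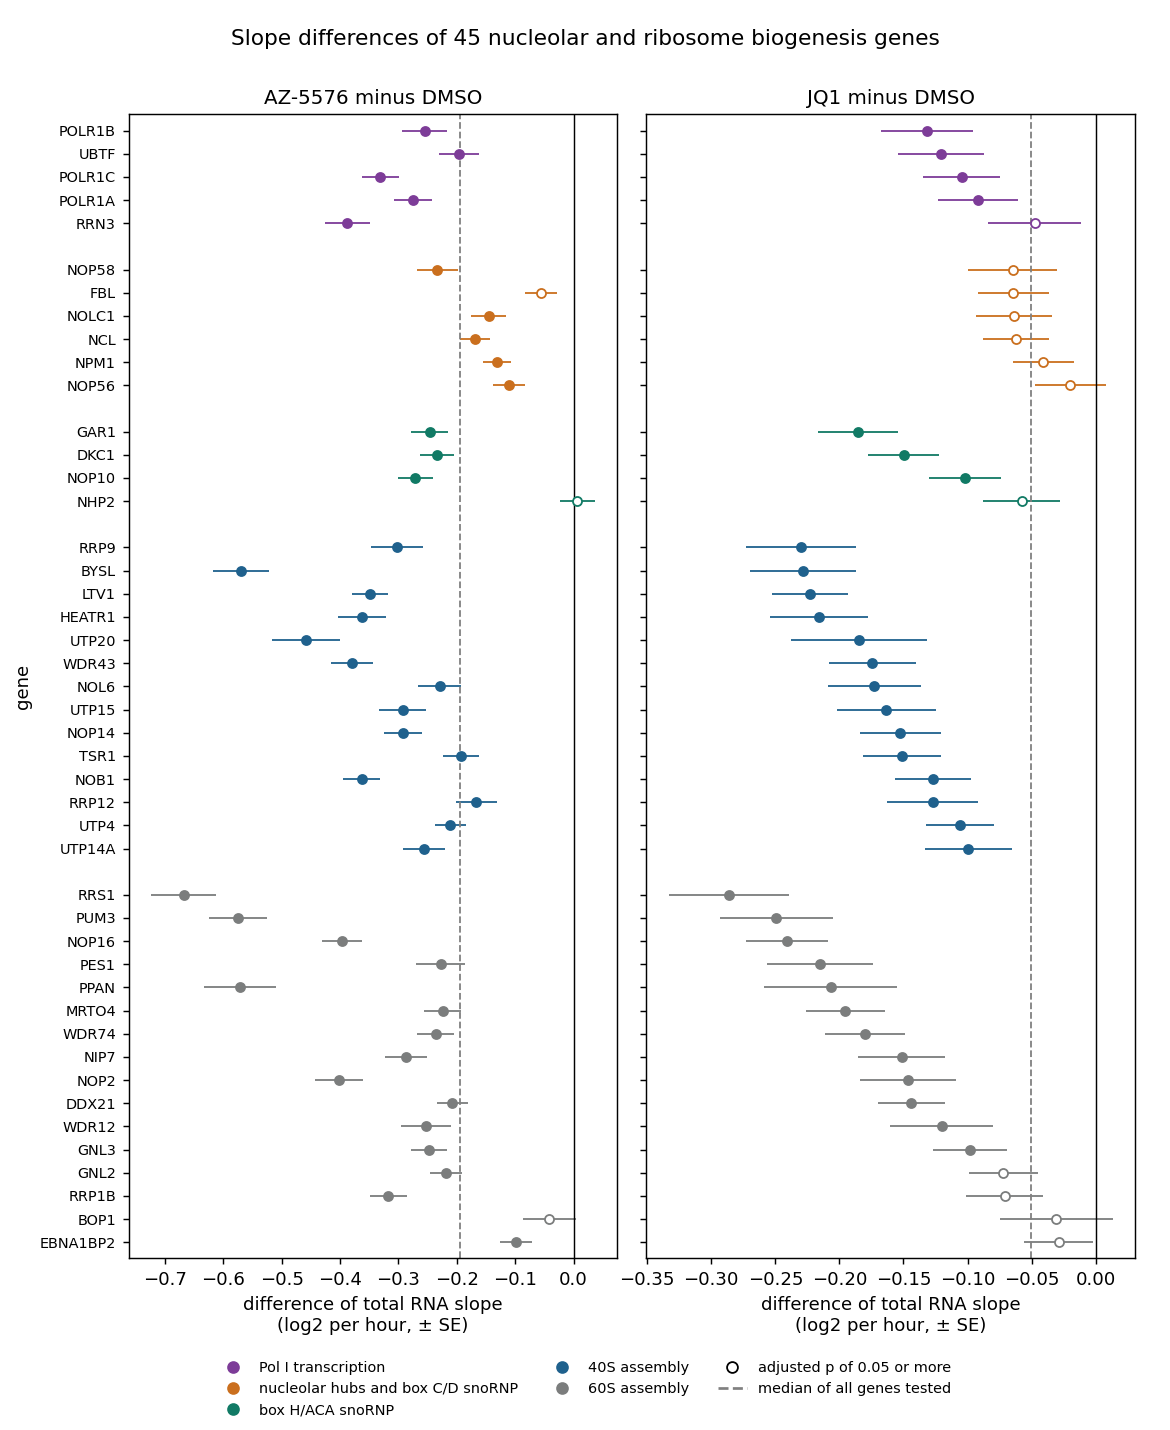
Difference in the slope of total RNA (log2 per hour, ± SE) of each of the 45 genes, AZ-5576 minus DMSO on the left and JQ1 minus DMSO on the right, grouped by role. Filled points passed the threshold, and the dashed line is the median of all genes tested, −0.19 for AZ-5576 and −0.05 for JQ1. RRS1 lies farthest left in both panels, and none of the 6 hub and box C/D genes is filled under JQ1.

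Relative to DMSO, all 5 Pol I transcription genes fell under AZ-5576, and 4 of 5 fell under JQ1. From here on, a gene that fell under an inhibitor had a lower slope than in DMSO. Its level need not have dropped below that at 0 h. POLR1B, the second largest Pol I subunit, stood at 85.7 reads per 100000 fly reads at 0 h, at 81.5, 38.1 and 12.9 at 2, 4 and 8 h of AZ-5576, at 58.7, 45.6 and 32.1 in JQ1 and at 89.2, 64.6 and 63.5 in DMSO. Both inhibitor arms ended below every DMSO library. Its slope difference was −0.25 under AZ-5576 (SE 0.04, edgeR adjusted p = 4.83e-06) and −0.13 under JQ1 (SE 0.04, edgeR adjusted p = 0.0141), the JQ1 call being lost without DMSO 8 h. UBTF, which opens the ribosomal DNA promoter for Pol I, had 57.3 at 0 h, 70.7, 43.4 and 28.6 in AZ-5576, 49.9, 57.2 and 47.3 in JQ1 and 74.6, 76.4 and 89.3 in DMSO. Every JQ1 library and every AZ-5576 library lay below every DMSO library. The slope differences of UBTF were −0.20 under AZ-5576 and −0.12 under JQ1 (edgeR adjusted p = 3.08e-05 and 0.0151). Without AZ-5576 8 h the UBTF call under AZ-5576 was lost, as was the JQ1 call without JQ1 8 h or DMSO 8 h.

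RRN3 joins Pol I to its promoter and was the Pol I gene on which the inhibitors differed most. RRN3 stood at 34.0 at 0 h, at 29.6, 24.3 and 15.9 in AZ-5576, at 58.6, 71.2 and 93.3 in JQ1 and at 59.6, 99.0 and 108 in DMSO. It was thus above its 0 h level at every time in JQ1 and DMSO and below it at every time in AZ-5576. The slope difference from DMSO was −0.39 under AZ-5576 (SE 0.04, edgeR adjusted p = 3.37e-08), the lowest of the Pol I genes, and −0.05 under JQ1 (SE 0.04, edgeR adjusted p = 0.382, and 0.01 with TMM). AZ-5576 minus JQ1 was −0.34 (edgeR adjusted p = 1.90e-07). PDXDC1 overlaps its 3′ end on the opposite strand, and RRN3 has 2 named pseudogenes with 1645 reads in all beside 9488 reads of RRN3. POLR1A and POLR1C, the other subunits listed, fell by 0.27 and 0.33 log2 per hour relative to DMSO under AZ-5576 and by 0.09 and 0.10 under JQ1.

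Of the 6 hub and box C/D genes, 5 fell under AZ-5576 and 0 passed under JQ1 by edgeR, with 3 at an unadjusted p under 0.05. Their median slope difference was −0.14 under AZ-5576 and −0.06 under JQ1, nearer 0 than the other roles in both cases. NCL, which encodes nucleolin, a binder of ribosomal DNA and precursor RNA, stood at 523 at 0 h, at 579, 425 and 296 in AZ-5576, at 553, 590 and 553 in JQ1 and at 698, 709 and 749 in DMSO. NPM1, which encodes the nucleolar chaperone nucleophosmin, stood at 3412 at 0 h, at 3413, 2356 and 1471 in AZ-5576, at 2980, 2903 and 2645 in JQ1 and at 3864, 3049 and 3254 in DMSO. Both genes were lower in each inhibitor library than in the DMSO library of the same time. NCL fell by 0.17 per hour under AZ-5576 relative to DMSO (SE 0.03, edgeR adjusted p = 6.61e-06) and NPM1 fell by 0.13 (SE 0.02, edgeR adjusted p = 5.25e-05). With TMM NCL was at 0.01 and not called, whereas NPM1 was at 0.04 and called higher. At 8 h of AZ-5576 NPM1 had 45.2% of its DMSO level (exact 95% interval 44.6% to 45.8%, counting error only). The NPM1 call was lost without AZ-5576 8 h.

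FBL, the methyltransferase of the box C/D snoRNP, stood at 1405 at 0 h, at 1643, 1009 and 733 in AZ-5576, at 1046, 1033 and 767 in JQ1 and at 1514, 1221 and 1031 in DMSO. Its level at 8 h was below that at 2 h in every arm, DMSO included. Its slope difference was −0.06 under AZ-5576 (SE 0.03, edgeR adjusted p = 0.0747, and 0.12 with TMM) and −0.06 under JQ1 (SE 0.03, edgeR adjusted p = 0.107). With TMM FBL was called higher under AZ-5576. NOP56, a core protein of the same snoRNP, stood at 197 at 0 h, at 208, 147 and 91.2 in AZ-5576, at 207, 194 and 154 in JQ1 and at 238, 190 and 173 in DMSO. It fell by 0.11 per hour under AZ-5576 relative to DMSO (SE 0.03, edgeR adjusted p = 0.00121), but was called higher with TMM, at 0.06. The NOP56 call did not survive leaving out AZ-5576 8 h or DMSO 8 h. Under JQ1 its difference of −0.02 was the highest of the 45 genes (SE 0.03, edgeR adjusted p = 0.659, and 0.03 with TMM). NOP58, the partner of NOP56, and NOLC1, a chaperone of snoRNPs, fell by 0.23 and 0.15 under AZ-5576 and had −0.06 each under JQ1.

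Of the box H/ACA proteins, DKC1, GAR1 and NOP10 fell relative to DMSO under both inhibitors and NHP2 passed under neither. DKC1, the pseudouridine synthase of the complex, stood at 158 at 0 h, at 170, 137 and 87.2 in AZ-5576, at 158, 153 and 155 in JQ1 and at 235, 238 and 335 in DMSO. JQ1 libraries stayed at the 0 h level while DMSO libraries lay above it. The slope difference of DKC1 was −0.23 under AZ-5576 (SE 0.03, edgeR adjusted p = 4.40e-07) and −0.15 under JQ1 (SE 0.03, edgeR adjusted p = 0.000904). Without DMSO 8 h the JQ1 call was lost. NHP2, an RNA-binding subunit, stood at 107 at 0 h, at 125, 96.9 and 77.8 in AZ-5576, at 99.2, 81.6 and 56.5 in JQ1 and at 123, 83.6 and 79.8 in DMSO. At 8 h of AZ-5576 it was at 97.6% of DMSO (exact 95% interval 91.0% to 105%), the nearest to DMSO of the 45 genes. Its slope difference was 0.01 under AZ-5576 (SE 0.03, edgeR adjusted p = 0.851), −0.01 without DMSO 4 h, and −0.06 under JQ1 (SE 0.03, edgeR adjusted p = 0.187). With TMM NHP2 was called higher under AZ-5576, at 0.18. RMND5B overlaps its 3′ end on the opposite strand.

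**Figure D3:**
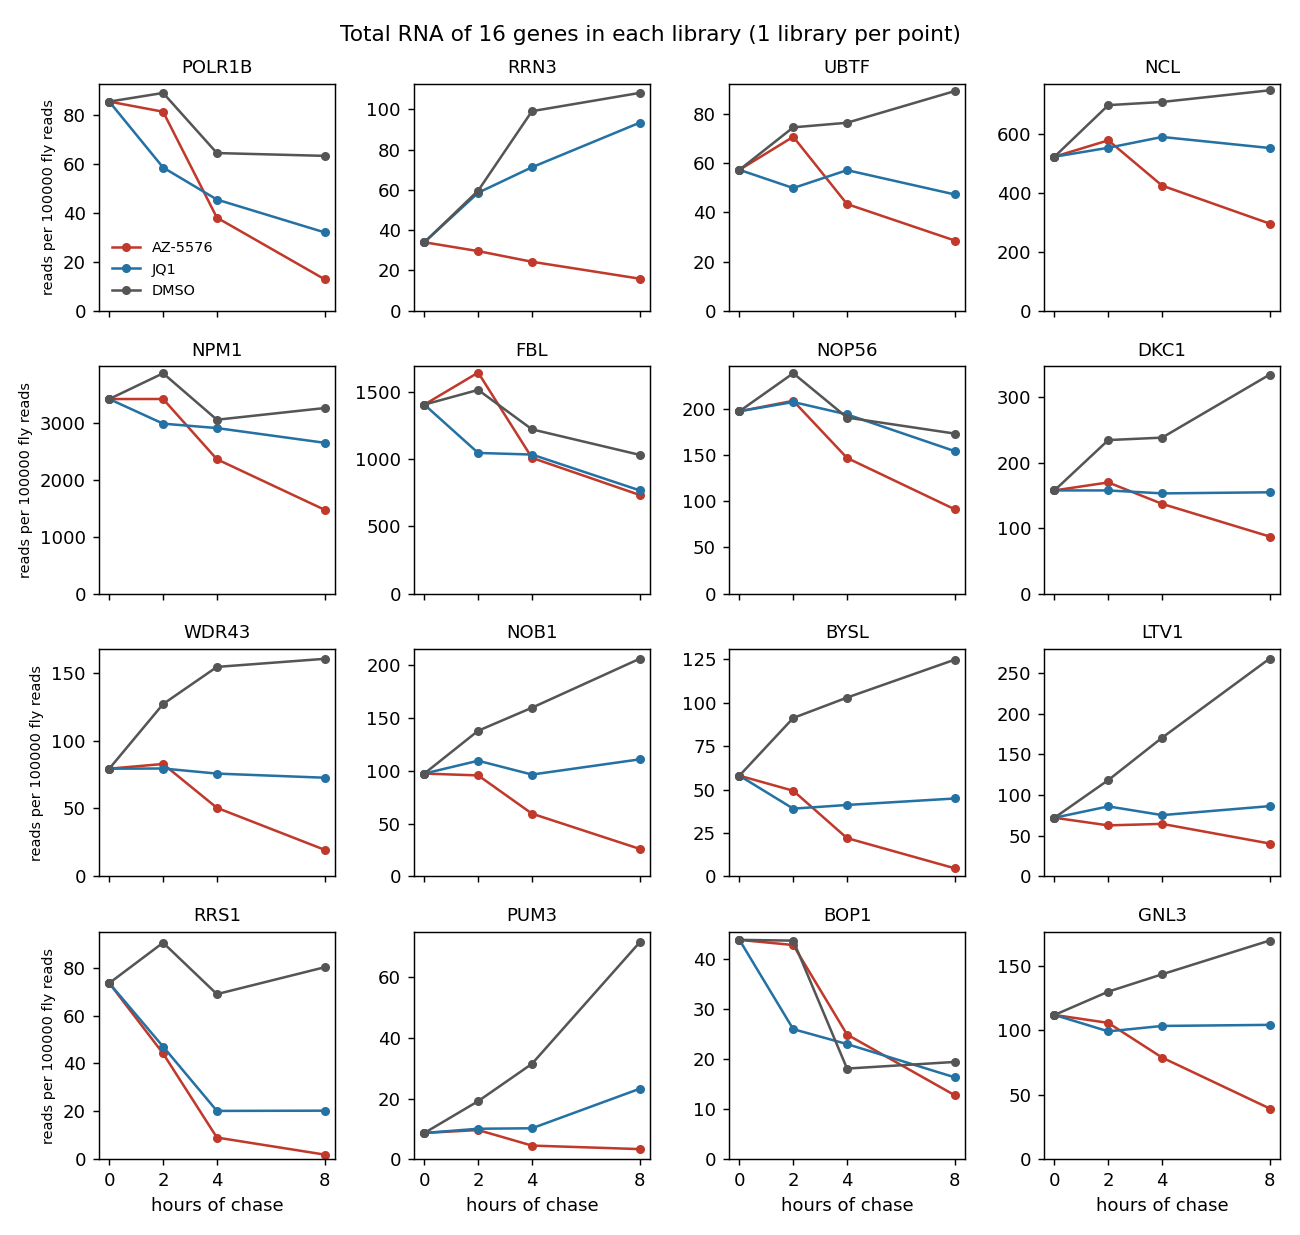
Total RNA level (reads per 100000 fly reads) of 16 of the genes against hours of chase, with 1 library per point and AZ-5576, JQ1 and DMSO as separate lines from a shared 0 h point. Each panel starts at 0. BYSL and RRS1 reach 4.69 and 1.94 at 8 h of AZ-5576. POLR1B, NPM1, FBL, NOP56, RRS1 and BOP1 end below their 2 h level in every arm.

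Relative to DMSO, all 14 factors of 40S assembly fell under both inhibitors. Their median slope difference was −0.30 under AZ-5576 and −0.17 under JQ1. WDR43, a subunit of the complex that first binds the precursor, stood at 79.3 at 0 h, at 82.7, 50.5 and 19.6 in AZ-5576, at 79.4, 75.7 and 72.6 in JQ1 and at 127, 154 and 160 in DMSO. NOB1, the nuclease that makes the final cut of 18S rRNA, stood at 97.3 at 0 h, at 95.6, 59.4 and 26.1 in AZ-5576, at 109, 96.4 and 111 in JQ1 and at 138, 160 and 206 in DMSO. Both followed the same course, a drop after 2 h in AZ-5576, a level near 0 h in JQ1 and a steady increase in DMSO. WDR43 differed from DMSO by −0.38 under AZ-5576 and −0.17 under JQ1 (edgeR adjusted p = 2.48e-08 and 0.00123). NOB1 differed by −0.36 and −0.13 (edgeR adjusted p = 1.09e-08 and 0.00528), the JQ1 call being lost without DMSO 8 h. BYSL and LTV1 were chosen for description after their values were seen. BYSL, a scaffold of late 40S precursors in yeast and human cells, stood at 58.0 at 0 h, at 49.4, 22.1 and 4.69 in AZ-5576, at 39.0, 41.2 and 44.9 in JQ1 and at 91.3, 103 and 125 in DMSO. At 8 h it was at 3.76% of DMSO in AZ-5576 (exact 95% interval 3.08% to 4.55%) and at 36.0% in JQ1 (33.1% to 39.0%). Its slope difference was −0.57 under AZ-5576 (SE 0.05, edgeR adjusted p = 7.89e-09) and −0.23 under JQ1 (SE 0.04, edgeR adjusted p = 0.000687).

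LTV1, an adaptor that must leave the 40S precursor before it matures, stood at 72.0 at 0 h, at 62.7, 64.5 and 40.4 in AZ-5576, at 85.9, 75.3 and 86.3 in JQ1 and at 118, 170 and 268 in DMSO. DMSO libraries lay above all others at every time. AL049844.3 lies over its 3′ end on the same strand. LTV1 differed from DMSO by −0.35 under AZ-5576 and −0.22 under JQ1 (edgeR adjusted p = 1.15e-08 and 3.66e-05). UTP20, a large scaffold protein and the least abundant of the genes at 0 h, stood at 6.24, 5.45 and 1.94 in AZ-5576, 11.4, 9.37 and 9.62 in JQ1 and 7.86, 13.4 and 33.6 in DMSO. At 8 h UTP20 was at 5.78% of DMSO in AZ-5576 (exact 95% interval 4.19% to 7.81%). Over the 14 genes the slope differences ranged from −0.57 (BYSL) to −0.17 (RRP12) under AZ-5576 and from −0.23 (RRP9) to −0.10 (UTP14A) under JQ1.

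Of the 16 factors of 60S assembly, 15 fell relative to DMSO under AZ-5576 and 12 under JQ1. This role held both the steepest and the flattest courses. RRS1, which helps bring the 5S ribonucleoprotein into the 60S precursor in yeast, stood at 73.5 at 0 h, at 44.1, 9.06 and 1.94 in AZ-5576, at 47.0, 20.2 and 20.3 in JQ1 and at 90.4, 68.9 and 80.1 in DMSO. It was below 0 h at every time under both inhibitors. At 8 h RRS1 was at 2.43% of DMSO in AZ-5576 (exact 95% interval 1.77% to 3.25%) and at 25.3% in JQ1 (22.5% to 28.4%). Its slope differences, −0.67 under AZ-5576 (SE 0.06, edgeR adjusted p = 7.13e-09) and −0.29 under JQ1 (SE 0.05, edgeR adjusted p = 0.000281), were the lowest of the 45 genes in both comparisons. Without DMSO 8 h the JQ1 call was lost, at −0.28. AC009879.2 lies over its 3′ end on the same strand.

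PUM3, a protein with Puf RNA-binding repeats, stood at 8.65 at 0 h, at 9.62, 4.50 and 3.34 in AZ-5576, at 10.0, 10.2 and 23.2 in JQ1 and at 19.1, 31.4 and 71.4 in DMSO. Its DMSO slope of 0.38 (SE 0.04, edgeR adjusted p = 1.92e-06) was the highest of the 45, beside −0.19 in AZ-5576 and 0.13 in JQ1. The differences of PUM3 from DMSO were −0.57 under AZ-5576 and −0.25 under JQ1 (edgeR adjusted p = 9.90e-09 and 0.000519). KCNV2 overlaps its 3′ end on the opposite strand. PPAN, the human relative of yeast SSF1, stood at 15.4 at 0 h, at 11.3, 3.34 and 1.35 in AZ-5576, at 9.42, 7.84 and 13.3 in JQ1 and at 14.2, 16.01 and 39.1 in DMSO. Its difference was −0.57 under AZ-5576 (SE 0.06, edgeR adjusted p = 9.29e-08) and −0.21 under JQ1 (SE 0.05, edgeR adjusted p = 0.00803). PPAN shares its 3′ end on the same strand with P2RY11 and a readthrough gene, so its reads may include theirs. NOP16 stood at 118 at 0 h, at 113, 79.6 and 27.1 in AZ-5576, at 104, 102 and 77.7 in JQ1 and at 183, 207 and 274 in DMSO. NOP16 differed by −0.40 under AZ-5576 and −0.24 under JQ1 (edgeR adjusted p = 9.58e-09 and 3.31e-05).

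BOP1, which forms the PeBoW complex with PES1 and WDR12, stood at 43.9 at 0 h, at 42.8, 24.9 and 12.8 in AZ-5576, at 26.0, 23.0 and 16.4 in JQ1 and at 43.7, 18.1 and 19.5 in DMSO. Its slope was below 0 and past the threshold in all arms, and at 4 h both inhibitor libraries were above DMSO. The difference of BOP1 was −0.04 under AZ-5576 (SE 0.04, edgeR adjusted p = 0.416) and −0.03 under JQ1 (SE 0.04, edgeR adjusted p = 0.668), and both turned positive with TMM and without DMSO 8 h. With TMM BOP1 was called higher under AZ-5576. PES1 and WDR12 of the same complex fell relative to DMSO, by 0.23 and 0.25 under AZ-5576 and by 0.21 and 0.12 under JQ1. EBNA1BP2 stood at 216 at 0 h, at 210, 186 and 112 in AZ-5576, at 239, 208 and 170 in JQ1 and at 258, 219 and 201 in DMSO. It fell by 0.10 under AZ-5576 (SE 0.03, edgeR adjusted p = 0.00234), a call lost without AZ-5576 8 h or DMSO 8 h. With TMM EBNA1BP2 was called higher under AZ-5576. Under JQ1 it had −0.03 (SE 0.03, edgeR adjusted p = 0.485, and 0.02 with TMM). GNL3, the nucleolar GTPase nucleostemin, stood at 112 at 0 h, at 106, 78.9 and 39.4 in AZ-5576, at 99.3, 103 and 104 in JQ1 and at 130, 144 and 170 in DMSO. The differences of GNL3 were −0.25 and −0.10 (edgeR adjusted p = 3.94e-07 and 0.0211), the JQ1 call being lost without JQ1 4 h, JQ1 8 h or DMSO 8 h.

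The remaining 60S genes, chosen after their values were seen, lay between these. NOP2, an rRNA methyltransferase, fell by 0.40 per hour relative to DMSO under AZ-5576 and by 0.15 under JQ1, and DDX21, an RNA helicase, fell by 0.21 and 0.14. RRP1B and GNL2, a GTPase related to GNL3, fell by 0.32 and 0.22 under AZ-5576 and missed the threshold under JQ1, at −0.07 each. MRTO4, WDR74 and NIP7 fell by 0.22, 0.24 and 0.29 under AZ-5576 and by 0.20, 0.18 and 0.15 under JQ1.

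AZ-5576 and JQ1, both at 1 µM, were also compared directly. Total RNA of 33 of the 45 genes fell under AZ-5576 relative to JQ1 and none rose, against 55% and 0.822% of all genes. The median difference of slope was −0.13 for the members and −0.13 for all genes. At 2 h the median log2 ratio of AZ-5576 to JQ1 was 0.06, at 4 h −0.33 and at 8 h −1.24, with 0.08, −0.32 and −1.20 for all genes. Genes not called included FBL (0.01), NHP2 (0.06), BOP1 (−0.01), PES1 (−0.01), MRTO4 (−0.03) and TSR1 (−0.04), whose SE were 0.03 to 0.04. The count was 10 without AZ-5576 8 h and 12 without JQ1 8 h, when 1947 and 2646 of all genes were lower. With TMM it was 12 lower and 12 higher, against 3130 lower and 2573 higher of all 11797 genes. With time levels edgeR called 0 members, with 6 at an unadjusted p under 0.05, against 1.17% of all genes lower and 0.017% higher.

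Labelled RNA, taken as RNA made during the pulse, fell over the chase for nearly all of the genes. In DMSO the slope of labelled RNA was below 0 for 42 of 45 members and above 0 for none, against 88.3% and 0.0454% of all 8817 genes tested, with a median of −0.23 log2 per hour for members and −0.22 for all genes. The member median corresponds to a half-life of 4.33 h, which includes dilution by growth and any labelling after the wash-out. RRP9, UTP20 and PUM3 missed the threshold. In AZ-5576 and in JQ1 all 45 members fell, against 85.1% and 90.8% of all genes, and in AZ-5576 0.034% of all genes rose. The median half-life was 4.50 h in AZ-5576 and 3.73 h in JQ1. In DMSO RRS1 was lost fastest, at −0.72 (half-life 1.396 h, SE of the slope 0.05), followed by POLR1B at −0.54 (1.85 h), POLR1C at −0.47 (2.13 h) and NOP2 at −0.46 (2.171 h). RRS1 had 613 labelled reads at 0 h and 18 at 8 h of DMSO. Among genes past the threshold in DMSO, slow loss was seen for NHP2 (10.9 h), EBNA1BP2 (10.6 h), FBL (9.92 h) and NPM1 (8.88 h). By role the median half-life was 3.16 h for Pol I genes, 5.52 h for hub and box C/D genes, 6.49 h for H/ACA genes, 4.06 h for 40S factors and 3.47 h for 60S factors. Labelled RNA did not follow a straight line from 0 h: in DMSO the median log2 ratio to 0 h took the values 0.10, −0.70 and −1.74 at 2, 4 and 8 h, with 0.09, −0.60 and −1.54 for all genes. At 2 h of DMSO 30 members were above 0 h and 15 below, where 39.4% of all genes were below. Whether labelling went on after the wash-out was not tested. The count of 42 members with a slope below 0 in DMSO was 26 without DMSO 8 h, when 3355 of all genes were lower. With TMM, which removes the common loss, 16 members fell and 8 rose, against 2316 and 2020 of all genes.

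Few members differed from DMSO in the slope of labelled RNA, which holds loss and any labelling after the wash-out. Relative to DMSO, the slope was lower for 2 members under AZ-5576 (PUM3 and LTV1) and higher for 1 (NOP56), against 1.22% and 3.53% of all genes. Under JQ1 it was lower for 1 member (LTV1) and higher for 0 by edgeR, against 0.352% and 0.318% of all genes. By the same test 10 members had an unadjusted p under 0.05. Labelled LTV1 stood at 59.7 reads per 100000 fly reads at 0 h, at 48.6, 37.1 and 16.2 in AZ-5576, at 55.8, 32.3 and 12.8 in JQ1 and at 68.4, 56.4 and 26.7 in DMSO. Both inhibitor arms lay below DMSO at every time. Its slope was −0.28 in AZ-5576, −0.32 in JQ1 and −0.17 in DMSO, and the differences were −0.11 (SE 0.03, edgeR adjusted p = 0.0361) and −0.15 (SE 0.04, edgeR adjusted p = 0.00804). Labelled PUM3 stood at 6.08 at 0 h, at 6.68, 2.86 and 2.16 in AZ-5576, at 7.11, 4.33 and 3.04 in JQ1 and at 9.44, 10.1 and 5.33 in DMSO. It was above its 0 h level at 2 and 4 h in DMSO, after the chase had begun. The difference of PUM3 under AZ-5576 was −0.22 (SE 0.05, edgeR adjusted p = 0.00204).

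Labelled NOP56 stood at 49.1 at 0 h, at 50.0, 34.3 and 20.5 in AZ-5576, at 45.2, 31.0 and 12.5 in JQ1 and at 44.7, 25.4 and 10.4 in DMSO. AZ-5576 was above DMSO at each time, and the slope difference was 0.12 (SE 0.04, edgeR adjusted p = 0.0335), while under JQ1 it was 0.04 (edgeR adjusted p = 0.929). RRP9, at −0.12, was next lowest under AZ-5576, and BOP1 and NOL6 had the highest differences, 0.13 each, but none passed (edgeR adjusted p = 0.293, 0.297 and 0.146). PUM3 under JQ1, at −0.15, and PPAN, at 0.08, did not pass either (edgeR adjusted p = 0.215 and 0.934). The calls of LTV1 and NOP56 under AZ-5576 were both lost without any 1 of the AZ-5576 2, 4 or 8 h, JQ1 2, 4 or 8 h, DMSO 4 h or DMSO 8 h libraries. They were also lost with no filter on low counts and with 1 inhibitor arm in the fit. The PUM3 call was lost without AZ-5576 8 h, and PUM3 was not tested with a minimum mean of 100 counts. Without JQ1 4 h, JQ1 8 h, DMSO 4 h or DMSO 8 h, 0 were lower under JQ1. With the 0 h library left out, 4 were lower under JQ1. With time levels edgeR called 0 members under AZ-5576 and 0 under JQ1, and 6 and 13 had an unadjusted p under 0.05. Of all genes that design called 0.034% lower under AZ-5576, and 0.0227% lower and 0.0227% higher under JQ1.

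Unlabelled RNA, the total minus the labelled reads, holds RNA older than the pulse and RNA made in the chase. Relative to DMSO it fell for 43 of 45 members under AZ-5576 (all but NHP2 and BOP1) and for 29 under JQ1, against 80.3% and 13% of all 11066 genes tested. No member rose relative to DMSO, where 0.371% of all genes rose under AZ-5576 and 1.07% under JQ1. The median differences of slope were −0.37 and −0.16 for members, and −0.29 and −0.06 for all genes. In DMSO unlabelled RNA rose for 36 members and fell for 3, against 59.8% and 2.3% of all genes. It rose for 17 and fell for 7 in JQ1, against 39.9% and 8.25%, and fell for 38 in AZ-5576, against 44.3%. Unlabelled LTV1 stood at 12.3 at 0 h, at 14.0, 27.4 and 24.2 in AZ-5576, at 30.1, 43.0 and 73.5 in JQ1 and at 49.9, 114 and 241 in DMSO. Unlabelled BYSL stood at 27.9 at 0 h, at 23.5, 12.7 and 2.15 in AZ-5576, at 20.1, 31.7 and 43.0 in JQ1 and at 60.1, 88.0 and 122 in DMSO. For both genes the order at every time was DMSO, then JQ1, then AZ-5576, apart from BYSL at 2 h, where JQ1 was lowest. The JQ1 count was 11 without JQ1 8 h and 14 without DMSO 8 h, when 346 and 652 of all genes were lower, and it was 14 with TMM, when 445 were. Under AZ-5576 TMM gave 24 lower and 6 higher, against 2907 and 2511 of all genes.

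**Figure D4:**
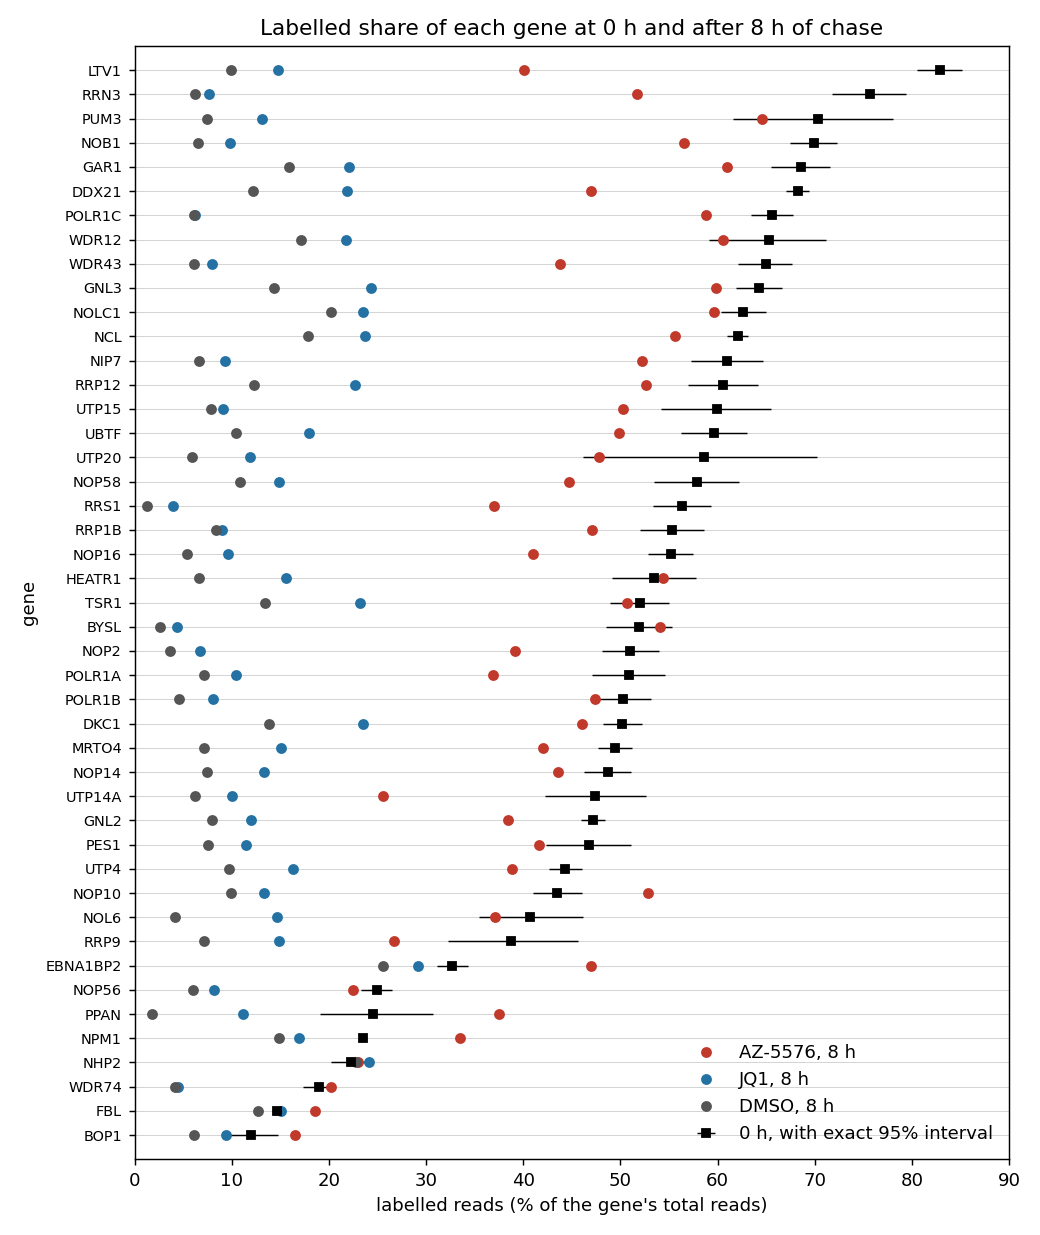
Labelled reads as a percentage of all reads of each gene at 0 h (squares, exact 95% interval) and after 8 h of AZ-5576, JQ1 or DMSO (circles), with genes ordered by the 0 h share. The median over the 45 genes was 46.1% in AZ-5576, 13.3% in JQ1 and 7.47% in DMSO at 8 h. Over all genes with at least 100 reads it was 41.6%, 11.5% and 9.41%. In every gene the AZ-5576 circle lies right of the DMSO circle.

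At the end of the pulse the labelled share of these genes spread widely, with a median of 52.0% and a range from 12.0% (BOP1) to 82.9% (LTV1, exact 95% interval 80.5% to 85.1%). All 7699 genes with at least 100 reads had a median of 51.4%. The share also depends on how many uridines a read covers, which limits comparisons between genes. After LTV1, RRN3 (75.7%) and PUM3 (70.3%) had the highest shares, and FBL (14.7%), WDR74, NHP2 (22.3%) and NPM1 (23.5%) were among the lowest with BOP1. After 8 h the member median was 46.1% in AZ-5576, 13.3% in JQ1 and 7.47% in DMSO, against 41.6%, 11.5% and 9.41% for all genes. The share in AZ-5576 was above DMSO in 45 of 45 genes and above JQ1 in 44. In 4 genes the share at 8 h of AZ-5576 was above that at 0 h with intervals apart, namely NPM1 (33.5%), FBL (18.6%), NOP10 (52.9%) and EBNA1BP2 (47.0%). These counts were made for the members only. The medians of all genes had the same order of arms, so the order is not particular to the members. NHP2 was at 23.0% in AZ-5576, 24.1% in JQ1 and 22.7% in DMSO, next to 22.3% at 0 h.

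For comparison, lists of related genes were counted in the same fits. Of 105 tested genes of ribosome biogenesis outside the 45, 99 fell under AZ-5576 and 58 under JQ1 relative to DMSO, with median slope differences of −0.25 and −0.11. They ranged from IMP3 at −0.62 to NSA2 at −0.02 under AZ-5576, and from UTP25 at −0.25 to RIOK2 at 0.01 under JQ1. Of 77 cytosolic ribosomal protein genes, 1 fell under AZ-5576 (RPL4, −0.08, SE 0.02, edgeR adjusted p = 0.00623) and 0 under JQ1 by edgeR, with medians of −0.01 and −0.02. Of 20 cytosolic aminoacyl-tRNA synthetases, 18 fell under AZ-5576 and 5 under JQ1, with medians of −0.16 and −0.07. The share of promoters with CACGTG was 29.7% of 91 for the other biogenesis genes, 4.84% of 62 for the ribosomal proteins and 6.25% of 16 for the synthetases. Within the 39 members with a promoter sequence, the 17 with CACGTG had a median slope difference of −0.27 under AZ-5576 (16 lower) and −0.17 under JQ1 (14 lower). The 22 without it had −0.25 (21 lower) and −0.13 (17 lower). FBL, with a site at 7, was not called under either inhibitor, while NOP16, with no CACGTG in the window, had the third lowest difference of the 45 genes under JQ1 and fell under AZ-5576. POLR1B, also without it, fell relative to DMSO under both inhibitors. PUM3, with a site at 42, was among the 3 members with the lowest differences under both inhibitors. These genes are examples, and a link of CACGTG to the slope differences was not tested.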

How the data were processed

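RNA of K562 cells was sequenced from the 3′ end (QuantSeq), per the labels' protocols. The authors deposited whole-number read counts per gene: total counts, nascent counts (taken here as reads with T-to-C conversions, labelled RNA) and fly spike-in counts. The builds were hg38 and dm6, and the tools named include bedtools, Trim Galore (version 0.6.5) and bcl2fastq (version 2.17.1.14), all per the submitters' processing notes. The aligner, the counting and the rule for labelled reads are not given in the sources used here. Unlabelled counts are total minus labelled.

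Counts were fitted with edgeR 4.0.16 (R 4.3.3), quasi-likelihood, scaled by the fly column sum, keeping genes that averaged 20 counts or more (11797, 8817 and 11066 genes for total, labelled and unlabelled RNA). All 45 members passed this filter. The model had a common 0 h level and 1 slope per arm, since the inhibitors were added at 0 h, leaving 6 residual degrees of freedom. The other design, time levels, is reported beside it. It had a level per time point common to the arms and 1 constant shift per inhibitor, leaving 4 residual degrees of freedom. Such a shift cannot hold a difference that grows with time. With 1 library per condition, p-values measure the scatter about straight lines, not replicates. P-values were Benjamini-Hochberg adjusted over all genes tested, with a threshold of 0.05. IDs without a symbol (3823 of 59204) held 0.249% of human reads. Ratios have exact 95% intervals, which cover counting error only because each condition has 1 library. They treat each read as a separate count, and no molecular identifiers were used. The intervals were computed with Python 3.11.15 and SciPy 1.17.1.

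Alternatives were TMM, the fly size factors by median of ratios, each table's own column sum, DESeq2 1.42.0, limma-trend (limma 3.58.1), no filter, a minimum mean of 100 counts, 1 inhibitor arm in the fit, a pseudocount of 5 in place of 0.5 for ratios, and each library left out. The slope fit was tested on simulated counts drawn about straight lines, with few genes changed. That test cannot tell how the fit does on courses that bend or where most genes change. The members and lists were chosen with earlier results of these data known. Genes given in full were a fixed panel (NCL, NPM1, FBL, NOP56, DKC1, POLR1B, UBTF, RRN3, WDR43, NOB1, BOP1 and GNL3), the 3 lowest and 3 highest members by total slope difference and the 2 lowest and 2 highest by labelled slope difference. Other genes given with values were chosen after their values were seen.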

Additional observations from a re-analysis of the deposited data

Results flagged for a closer look

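FBL and UTP20 changed side relative to DMSO between 2 h and 8 h, and the difference between the times was not tested. FBL total RNA under AZ-5576 was at 109% of DMSO at 2 h (exact 95% interval 106% to 111%) and at 71.1% at 8 h (69.6% to 72.6%). UTP20 total RNA under JQ1 was at 144% of DMSO at 2 h (112% to 187%) and at 28.6% at 8 h (24.0% to 34.0%). The intervals cover counting error only.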

How the results depend on the processing

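No paired analysis was possible because each condition has 1 library and so no replicates to pair. The arms share time points, and the fit with time levels compares them matched by time, as 1 constant shift per inhibitor. DESeq2 and the fly size factors by median of ratios kept each of these counts of members called within 1.5 times. With limma-trend labelled RNA was the exception, with 2 members lower under JQ1 in place of 1, and 2 higher under AZ-5576 (NOP56 and POLR1B) in place of 1. Total RNA lower under AZ-5576 was 42 and became 27 with TMM and 3 with time levels, with 34 to 43 when each library was left out. Total RNA lower under JQ1 was 33 and became 23 with TMM and 0 with time levels (17 at an unadjusted p under 0.05, edgeR), with 5 to 37 when a library was left out. AZ-5576 against JQ1 was 33 and became 12 with TMM and 0 with time levels (6 at an unadjusted p under 0.05, edgeR), with 10 to 36. Rises in DMSO ranged from 3 to 28. Labelled RNA lower under AZ-5576 was 2 and became 5 with TMM, 1 with no filter, with a mean count of at least 100 or with 1 inhibitor arm in the fit, and 0 with time levels (6 at an unadjusted p under 0.05, edgeR), with 0 to 2 when a library was left out. Labelled RNA lower under JQ1 was 1 and became 2 with TMM or limma-trend and 0 with time levels (13 at an unadjusted p under 0.05, edgeR), with 0 to 4. Labelled loss in DMSO was 42 and became 16 with TMM and 23 with the own column sum, with 26 to 43. Unlabelled RNA lower under AZ-5576 was 43 and became 24 with TMM, with 41 to 43, and under JQ1 it was 29 and became 14 with TMM, with 11 to 32.

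TMM moved the median slope difference of all genes from −0.19 to −0.02 under AZ-5576 and the share of lower among all calls from 99.2% to 57.2%, and under JQ1 that share from 90.1% to 58.4%. Under AZ-5576 TMM reversed total NCL (0.00575), NPM1 (0.0436), FBL (0.118), NOP56 (0.0645) and BOP1 (0.133), and the own column sum FBL (0.0336) and BOP1 (0.0486). With each library left out NHP2 lay between −0.00542 and 0.0316, and BOP1 between −0.0715 and 0.0501. Under JQ1 TMM reversed RRN3 (0.00647), NPM1 (0.0117), NOP56 (0.0339), BOP1 (0.022) and EBNA1BP2 (0.0247), and the own column sum NOP56 (0.0152), BOP1 (0.00345) and EBNA1BP2 (0.00603). With each library left out BOP1 lay between −0.106 and 0.0622 there, and labelled PPAN under JQ1 between −0.0571 (without JQ1 8 h) and 0.123. Of the values of single genes under the alternatives, 683 kept direction and side of the threshold, 45 lost the threshold, 6 passed it and 20 reversed. The cause was not tested beyond the construction of each alternative.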
